A study of Homo sapiens with 4 samples.

Results

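The 24 h response to 8Br-cAMP in KGN cells depleted of YAP and TAZ is described here across genes, as the log2 level in siYT+8Br-cAMP less the level in siYT. All 17687 genes with a probe set that names exactly 1 gene were taken, from 17709 such probe sets of 24351 on the array, with no choice by level or size. KGN is an established human line from a granulosa cell tumour, and granulosa cells are the cells of the ovarian follicle that surround the oocyte. RNA was measured on Clariom S Human arrays, with 1 array for each of 4 groups. The cells of the siYT and siYT+8Br-cAMP groups received siRNAs against YAP and TAZ at 5 nM each, and those of the siNC and siNC+8Br-cAMP groups received control siRNA at 10 nM. After 48 h, medium with 0.5 mM 8Br-cAMP or without it was given for 24 h. The knockdown was thus shared by both arrays of the response described, and the 8Br-cAMP difference after siNC, from 2 other arrays, is given beside it. All cells are of 1 line, and siRNA lowers an mRNA without removing the gene.

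Cyclic AMP is the messenger that gonadotropins raise in granulosa cells. It frees the catalytic subunits of protein kinase A, which phosphorylate the transcription factor CREB at promoters that carry a cAMP response element, and it also acts through EPAC, an exchange factor for the GTPase RAP1. In the follicle this pathway is known for switching on the enzymes that turn cholesterol into progesterone and estradiol, and phosphodiesterases end the signal by breaking cyclic AMP down. 8Br-cAMP is an analogue that enters cells and resists this breakdown. YAP and TAZ bind TEAD factors as coactivators, and the Hippo kinases, which respond to cell contact and tension, hold them in check.

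A gene was called higher or lower when the arrays differed by at least 1 on the log2 scale, which is 2-fold, and the higher of them was not under 6.22, a level filter set at the median of the gene values on all 4 arrays. Among the 17687 genes, 718 (4.06%) were called higher and 734 (4.15%) lower with 8Br-cAMP after siYT. This balance depended on the scaling as well. It was 795 and 654 with each array centred on its median, and 668 and 796 with arrays centred on the positive controls. After siNC, 764 genes (4.32%) were higher and 662 (3.74%) lower, a balance that turned under 3 of 4 scalings, to 673 and 750 after cyclic loess, 688 and 748 after quantile normalization and 708 and 722 with each array centred on its median. A call rests on size alone. With 1 array per group there is no spread between cultures to set it against, so no test was made and no p-value is given. The control probe sets give the share to read these counts against. Of the 9276 gene probe sets that passed the filter, 15.7% were called, against 10.1% of the 2085 positive control probe sets that passed it. Of 612 negative control probe sets, 91 passed the filter and 73 of these (80.2%) were called. Over all probe sets of each kind, 8.22% of gene, 9.6% of positive control and 11.9% of negative control probe sets were called. On that basis the share of genes lay under that of both controls. Of 63 ERCC spike-in probe sets, 5 passed it and none was called. The median difference over all genes was -0.02 after siYT and -0.03 after siNC. Under the level filter on both arrays lay 8422 genes, for which a difference depends on the background and which could not be called. Of the 9265 genes at or over it on at least 1 array of the siYT pair, 7.75% were called higher and 7.92% lower. The counts of lists given below are to be read against these shares as well.

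The levels of the targets bear on the labels. YAP1 was at 9.48 in siNC, 9.46 in siNC+8Br-cAMP, 6.80 in siYT and 6.29 in siYT+8Br-cAMP. WWTR1, which encodes TAZ, was at 7.58, 9.13, 5.45 and 5.35 on the same 4 arrays. Both were lowest on the siYT arrays, and their 8Br-cAMP differences after siYT, -0.50 and -0.10, were not called. Array medians ran from 6.20 to 6.27. Of 27 measured genes of granulosa identity, 12 passed the level filter in siYT and 13 in siYT+8Br-cAMP. GATA4, an ovarian transcription factor, was at 10.90 and 11.65, and FSHR, the receptor for follicle-stimulating hormone, at 6.31 and 6.63. Both FSHR values lay under 6.95, the 95th percentile of the negative control probe sets. FOXL2, a defining factor of granulosa cells, lay under the filter at 4.19 and 5.14, as did LHCGR, the receptor for luteinizing hormone, at 4.07 and 4.05.

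A few promoters are shown because they hold the element that CREB binds. The sequences are the 250 bases before the transcription start from RefSeq (GRCh38.p14), which held a promoter for 14250 of the 17687 genes. Of 40 genes chosen by size or as cAMP targets, 34 had one there. Printed are 3 that held the full palindromic cAMP response element TGACGTCA, in capitals. DIO2 (chr14:80212179-80212428, minus strand), the gene with the largest difference, has it beginning 96 bases before the start. CHMP1B (chr18:11851163-11851412, plus strand) has it at 46 bases and DUSP1 (chr5:172771196-172771445, minus strand) at 125 bases. The 3 sequences run 5′ to 3′ along the gene.
DIO2: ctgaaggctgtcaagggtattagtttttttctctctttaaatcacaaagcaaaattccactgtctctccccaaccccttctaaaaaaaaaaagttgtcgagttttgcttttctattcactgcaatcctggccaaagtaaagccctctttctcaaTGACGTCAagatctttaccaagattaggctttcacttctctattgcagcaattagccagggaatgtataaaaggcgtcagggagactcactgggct
CHMP1B: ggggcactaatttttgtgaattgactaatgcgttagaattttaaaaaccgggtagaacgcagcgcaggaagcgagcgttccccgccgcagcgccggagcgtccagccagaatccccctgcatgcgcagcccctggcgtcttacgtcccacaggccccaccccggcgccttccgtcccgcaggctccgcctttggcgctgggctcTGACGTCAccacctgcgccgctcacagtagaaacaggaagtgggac
DUSP1: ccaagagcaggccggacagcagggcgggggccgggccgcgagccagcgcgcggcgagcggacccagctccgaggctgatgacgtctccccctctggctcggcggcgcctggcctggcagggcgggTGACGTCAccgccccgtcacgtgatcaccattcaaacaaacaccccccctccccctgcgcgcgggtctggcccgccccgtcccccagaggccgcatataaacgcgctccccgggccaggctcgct

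The full element stood in 2.76% of all promoters of this length. It stood in 4.03% of those of genes called higher after siYT (24 of 595), 1.46% of those called lower (9 of 618) and 7.2% of those higher by at least 4-fold (9 of 125). Its half-site TGACG, which lies within the full element and was counted on both strands as all motifs here, stood in 30.7% of all promoters, 37.8% of the higher group and 31.1% of the lower group. Among the genes higher by at least 16-fold, 17 of 28 promoters (60.7%) held the half-site. The core GGAATG bound by TEAD factors was in 13.5% of all promoters, 15.6% of the higher and 15.4% of the lower group, and the AP-1 site TGACTCA in 4.66%, 4.2% and 5.99%. Among genes at least 4-fold higher, the TEAD core was in 26 of 125 promoters (20.8%) and the AP-1 site in 9 (7.2%). At 16-fold, 5 and 4 of 28 held them. The NR5A site CAAGGTCA was in 1.29% of all promoters and 1.6% of the 4-fold group, and the NR4A site AAAGGTCA in 1.24% and 0.8%. At 16-fold, 1 and 0 of 28 held them. Higher shares in the larger groups were thus seen for the TEAD core and AP-1 site as well as the cAMP response element, but not for the NR4A site. After siNC, the full element stood in 5.06% of promoters of genes called higher (32 of 633). These shares describe letters in a window and say nothing of binding.

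The largest differences were upward. Of the called genes, 158 were at least 4-fold higher and 97 at least 4-fold lower, and at least 16-fold, 33 were higher and 3 lower. DIO2, the deiodinase that activates thyroid hormone, was at 4.91 in siYT and 13.69 in siYT+8Br-cAMP, a difference of 8.78 or 441-fold, and at 6.54 and 12.66 in the siNC pair. Since its level in siYT lay under the filter, that fold depends on the background. CHMP1B, an ESCRT protein of membrane remodelling, was well over the filter on every array, at 11.31 and 16.23 after siYT and at 10.49 and 14.61 after siNC.

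**Figure D1:**
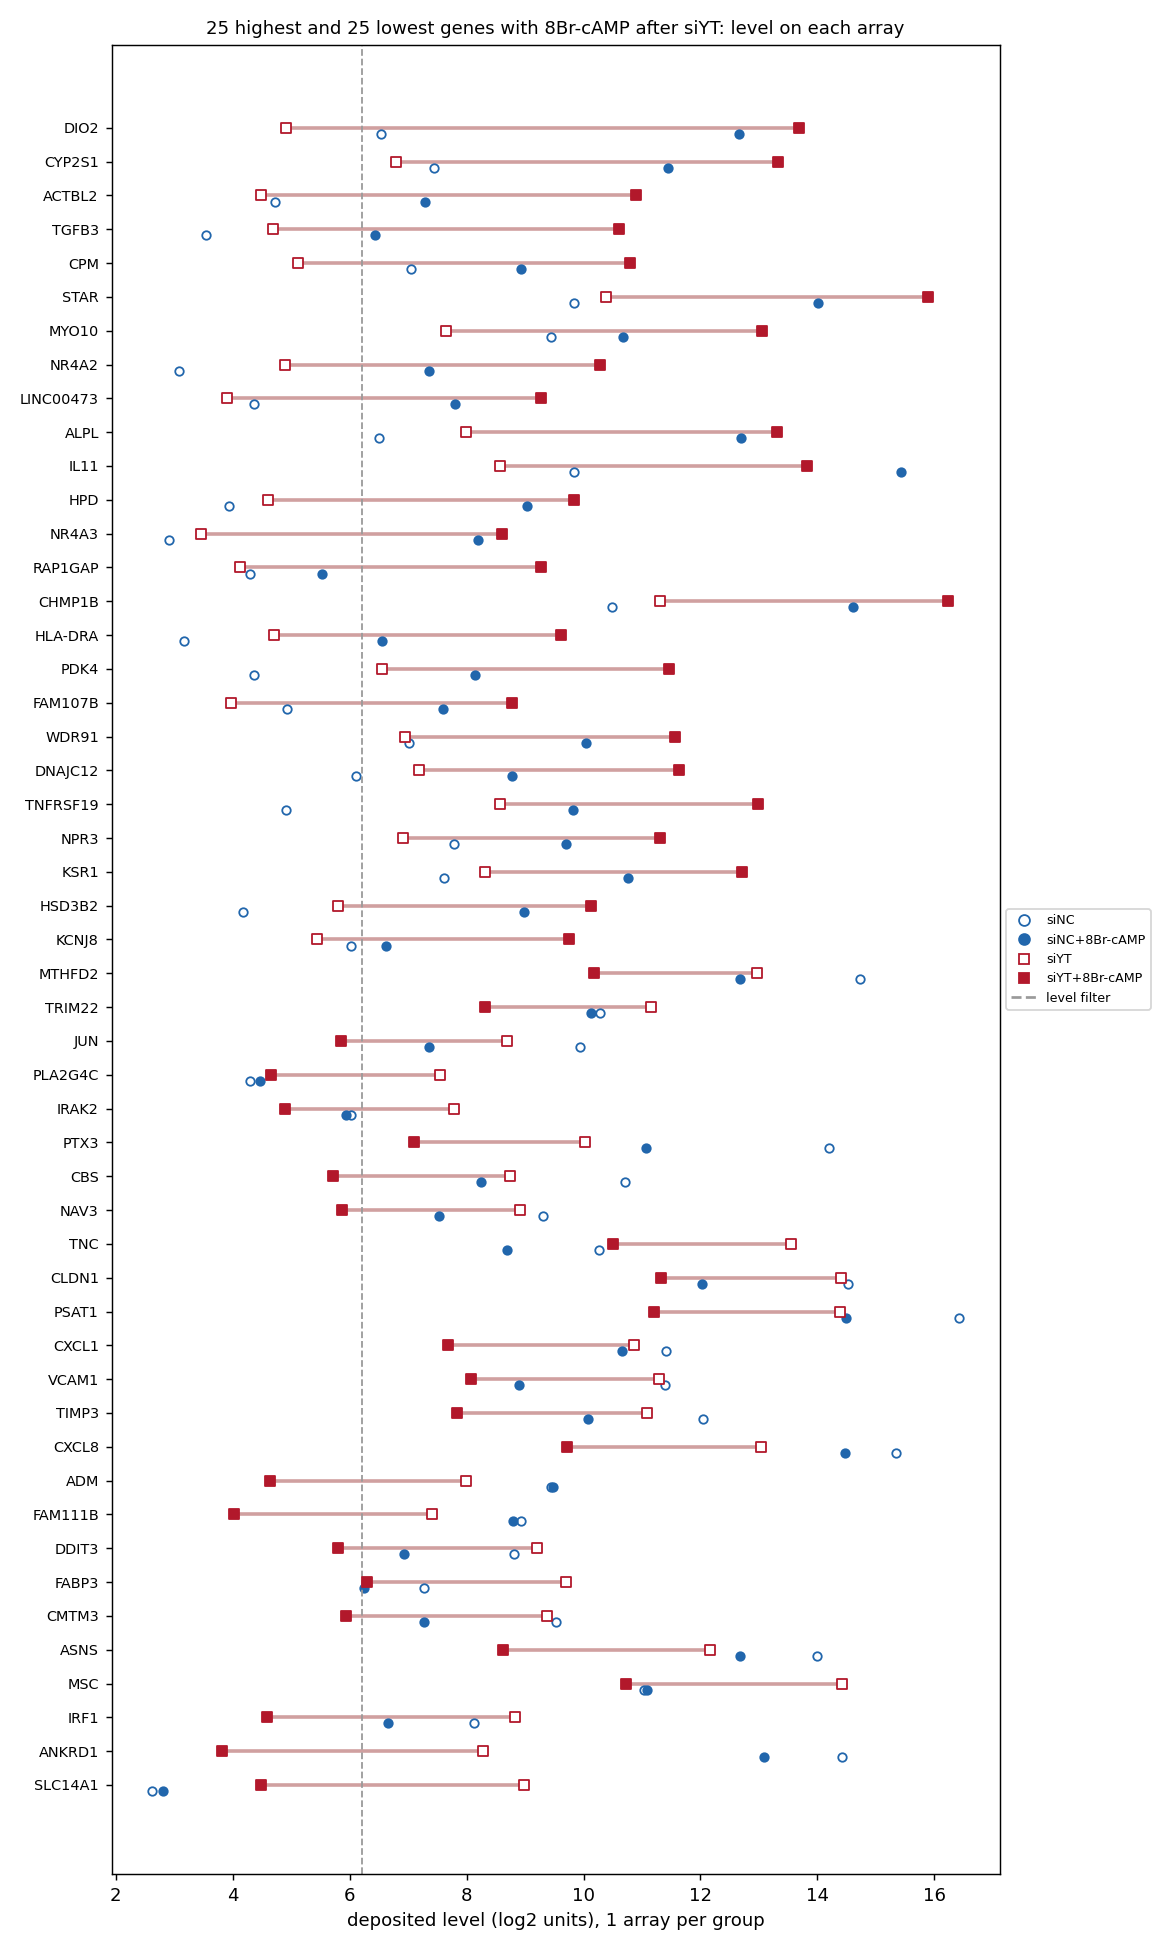
Deposited log2 level (horizontal axis) on each of the 4 arrays for the 25 genes highest and the 25 lowest with 8Br-cAMP after siYT; open symbols are arrays without and filled symbols with 8Br-cAMP, squares siYT and circles siNC, and the dashed line is the level filter of 6.22. Among the 25 highest genes the filled square lies right of the open one by 4.32 to 8.78, and among the 25 lowest the difference runs from -4.49 to -2.79.

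The other highest genes encode enzymes, secreted factors and signalling proteins. CYP2S1, a cytochrome P450, went from 6.78 to 13.32, a difference of 6.54 against 4.004 after siNC. TGFB3, a TGF-beta ligand, was at 4.69 and 10.60 after siYT and at 3.54 and 6.43 after siNC. ALPL, tissue-nonspecific alkaline phosphatase, was at 7.99 and 13.31 after siYT and at 6.49 and 12.69 after siNC. IL11, a cytokine of the IL6 family, was at 8.57 and 13.82 against 9.84 and 15.44. LINC00473, a long noncoding RNA known as a cAMP target, was at 3.90 and 9.27 against 4.37 and 7.80. HPD, an enzyme of tyrosine breakdown, went from 4.60 to 9.84, and PDK4, a kinase that restrains pyruvate dehydrogenase, from 6.56 to 11.45. KSR1, a scaffold of the RAF and MEK kinases, was at 8.32 and 12.71, and NPR3, the clearance receptor for natriuretic peptides, at 6.92 and 11.31. Of the 25 highest genes, 23 were also called higher after siNC, and for 13 at least 1 array of the siYT pair lay under the filter.

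Among the 25 lowest genes, 16 were also called lower after siNC and 12 had a value under the filter. SLC14A1, a urea transporter, was at 8.98 in siYT and 4.49 in siYT+8Br-cAMP, and at 2.62 and 2.81 in the siNC pair, so it passed the filter on the siYT array alone. ANKRD1, a nuclear ankyrin-repeat protein and a classical YAP target, was at 8.28 and 3.81 after siYT, a difference of -4.46, and at 14.42 and 13.08 after siNC. IRF1, a transcription factor of the interferon response, was at 8.83 and 4.59, against 8.13 and 6.65. MSC, the basic helix-loop-helix factor musculin, was at 14.43 and 10.73, a difference of -3.70, while its siNC values were 11.03 and 11.09. TIMP3, an inhibitor of matrix metalloproteinases, was at 11.09 and 7.84, and CLDN1, a tight-junction claudin, at 14.41 and 11.33, both also called lower after siNC.

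Steroid synthesis included several of the largest differences. Of 37 measured genes of steroid synthesis and conversion, 6 were called higher and 1 lower after siYT, and 8 and 1 after siNC, and the median of the list was 0.12 after siYT. STAR, which carries cholesterol into mitochondria, was at 10.38 in siYT and 15.90 in siYT+8Br-cAMP, a difference of 5.51, and at 9.84 and 14.01 after siNC. CYP11A1, which cuts the cholesterol side chain to make pregnenolone, was at 8.82 and 12.84, a difference of 4.03, and at 4.25 and 8.94 after siNC. HSD3B2, which makes progesterone from pregnenolone, was at 5.80 and 10.12 after siYT and at 4.17 and 8.99 after siNC. For all 3 the siYT+8Br-cAMP array was the highest of the 4.

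CYP19A1, the aromatase that makes estrogens, was at 14.26 in siYT and 17.56 in siYT+8Br-cAMP, a difference of 3.29. After siNC it was at 5.04 and 14.26, a difference of 9.23, the largest of any gene in that comparison. The level in siYT without 8Br-cAMP thus equalled, to 2 decimals, that in siNC with it. FDX1, the ferredoxin that feeds electrons to CYP11A1, was higher by 1.21, from 7.67 to 8.88. CYB5A, a cytochrome b5 that assists CYP17A1, was the gene called lower, at 9.27 and 8.03. AKR1C1, AKR1C2 and AKR1C3, aldo-keto reductases that inactivate or convert steroids, differed by 0.65, 0.46 and -0.06 after siYT and by 2.23, 2.17 and 1.98 after siNC.

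Regulators of these enzymes showed small differences. Of 22 measured, none was called higher and 2 lower. These were GATA6, at 8.01 and 6.98, and MRAP2, a melanocortin receptor accessory protein, at 6.82 and 5.46. Of 31 genes of cholesterol synthesis, uptake and storage, 2 were higher and 4 lower. SREBF2, the master regulator of sterol synthesis, was at 11.27 and 9.90, LSS, the lanosterol synthase, at 9.27 and 7.74, and PLIN2, a lipid-droplet coat protein, at 8.81 and 7.05. PLIN2 was at 6.18 and 6.94 after siNC, where it was not called.

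The listed cAMP and CREB target genes split into a strongly higher group and the rest. Of 41 measured, 13 were called higher and 4 lower after siYT, against the 4.06% and 4.15% of all genes, and 14 and 2 after siNC. Because 24 of the 41 were not called, the median of the list was 0.03. The orphan nuclear receptors were all higher: NR4A1 by 2.80 (5.87 and 8.67), NR4A2 by 5.39 (4.90 and 10.28) and NR4A3 by 5.15 (3.45 and 8.61). After siNC their differences were 1.47, 4.26 and 5.28. RASD1, a RAS-related G protein, was at 5.89 and 10.07, and TOB1, an antiproliferative adaptor, at 13.25 and 16.95. DUSP1, the phosphatase that inactivates MAP kinases and whose promoter is shown above, was at 11.27 and 14.9997 after siYT and at 12.92 and 14.81 after siNC. BDNF, a neurotrophin known as a CREB target, was at 9.97 and 13.65, SCG2, a granin, at 6.91 and 9.40, and PPARGC1A, the coactivator of mitochondrial genes, at 11.42 and 13.39. SIK1, a kinase that phosphorylates the CREB coactivators, was at 6.37 and 8.69. EGR1, an immediate early factor, was lower, at 7.91 and 5.65 after siYT, while both siNC values, 5.44 and 5.39, lay under the filter.

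**Figure D2:**
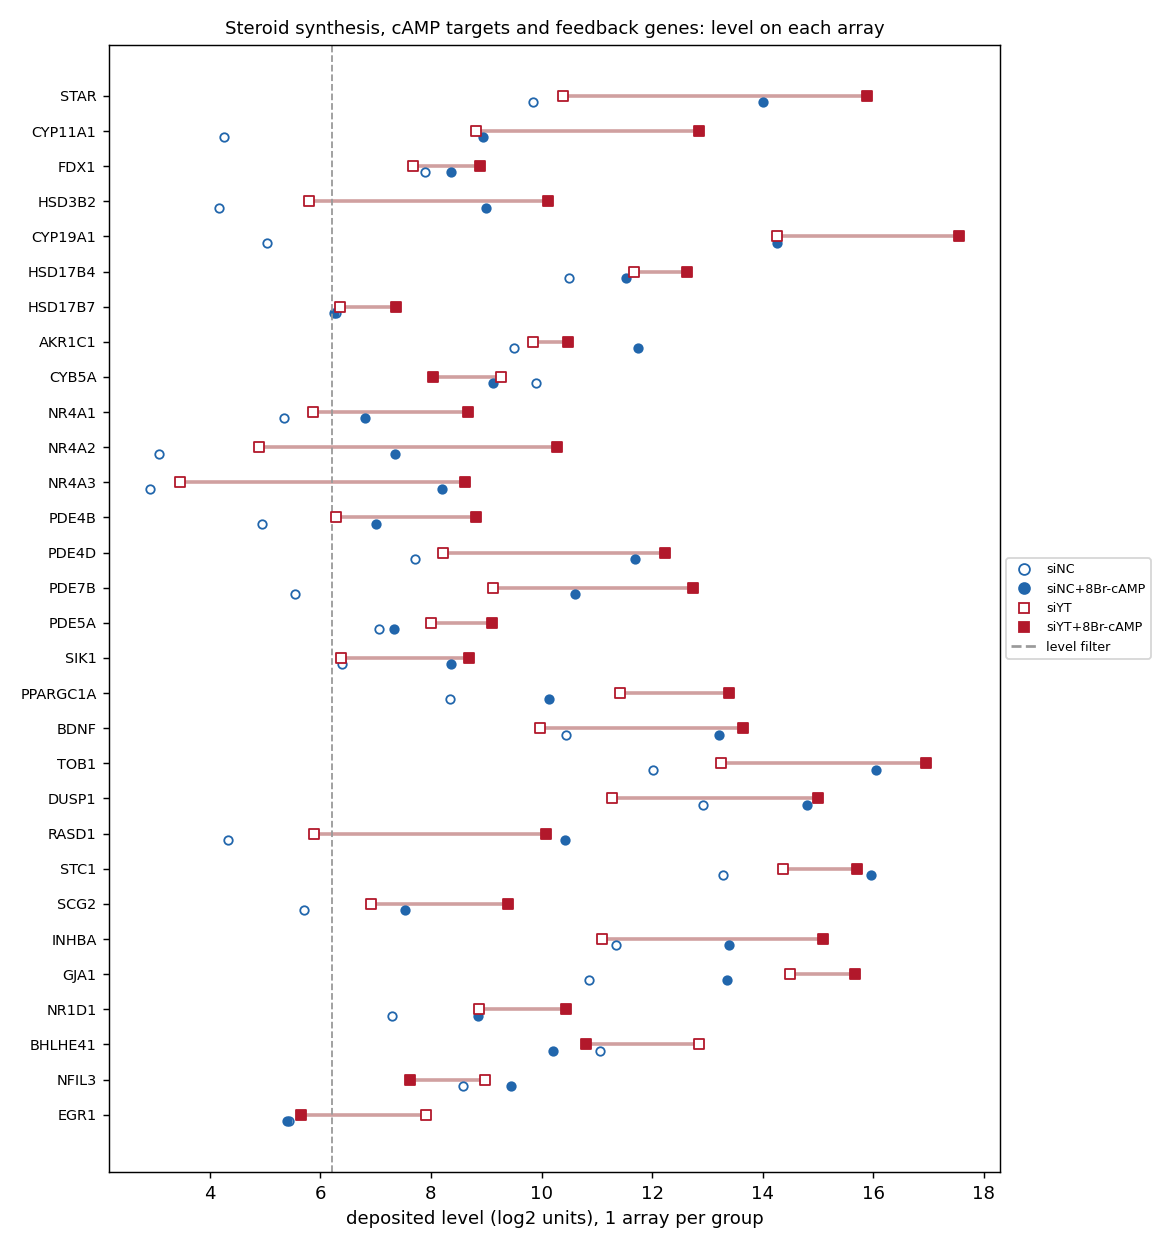
Deposited log2 level (horizontal axis) on each array for 30 genes of steroid synthesis, cAMP targets and feedback, with the symbols as in the plot of the highest and lowest genes. STAR, CYP11A1, HSD3B2 and CYP19A1 are highest in siYT+8Br-cAMP, and EGR1, BHLHE41 and CYB5A are lower there than in siYT.

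Among the genes that break down cyclic nucleotides, those called were higher. Of 23 phosphodiesterases, 4 were called higher and none lower, with a median of 0.48 after siYT and -0.05 after siNC. Only 9 of the 23 passed the level filter in the siYT pair. The median level was 4.38 in siYT and 4.74 in siYT+8Br-cAMP, so these medians rest largely on values under the filter. PDE4D, a cAMP-specific enzyme, was at 8.22 and 12.23 after siYT and at 7.71 and 11.69 after siNC, differences of 4.02 and 3.97. PDE7B, another cAMP-specific enzyme, was at 9.13 and 12.74 against 5.55 and 10.61, and PDE4B at 6.29 and 8.82 against 4.95 and 7.005. PDE5A, which breaks down cyclic GMP, was at 8.00 and 9.10. Among 44 genes of the kinase and CREB machinery itself, 2 were higher and 2 lower, which is 4.55% each way and near the shares of all genes. AKAP6, an anchor for protein kinase A, was at 5.16 and 7.20, and PKIA, an inhibitor of that kinase, at 8.10 and 6.98.

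Regulators of small GTPases differed by gene. Of 37 measured, 5 were higher and 3 lower. RAP1GAP, which switches RAP1 off, was at 4.12 in siYT and 9.27 in siYT+8Br-cAMP, against 4.29 and 5.52 after siNC, where it stayed under the filter. RRAD, a RAS-related inhibitor of calcium channels, was lower at 8.47 and 6.74. Of 24 Sprouty, SPRED and DUSP genes, which dampen ERK signalling, DUSP1 was higher and 4 were lower, with a median of -0.45 after siYT and 0.16 after siNC. ERRFI1, an inhibitor of the EGF receptor, was at 15.48 and 13.18 after siYT and at 15.66 and 16.001 after siNC. DUSP6 and DUSP10, phosphatases of ERK and of the stress kinases, were lower, with differences of -1.47 and -2.08. SPRY1, chosen for its difference between the siRNAs, was at 12.62 and 12.19 after siYT and at 9.10 and 12.46 after siNC.

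Among 21 clock genes, 1 was higher and 3 lower. NR1D1, the repressor REV-ERB alpha, was at 8.87 and 10.44, a difference of 1.57 against 1.55 after siNC. BHLHE41, a repressor also called DEC2, was at 12.85 and 10.80, and BMAL2, a partner of CLOCK, at 8.83 and 7.41. NFIL3, a repressor of clock output, was at 8.97 and 7.63 after siYT and at 8.58 and 9.45 after siNC.

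Granulosa and ovulation genes showed both directions. In the granulosa identity list of 27, 3 were higher and 1 lower, with a median of 0.19. INHBA, the subunit of activin A, was at 11.09 and 15.08 after siYT, a difference of 3.997, and at 11.36 and 13.39 after siNC. GJA1, the gap junction protein connexin 43, was at 14.50 and 15.67, and HMGA2, a chromatin protein, was lower at 8.06 and 5.58. Of 37 ovulation and cumulus genes, 6 were higher and 7 lower. HAS2, which makes the hyaluronan of the cumulus matrix, was at 4.70 and 7.93, and PTGS2, the inducible prostaglandin synthase, at 5.33 and 7.19. PTGS2 lay under the filter on both siNC arrays, at 4.50 and 4.27. PTX3, a pentraxin that stabilizes that matrix, was lower after both siRNAs, at 10.02 and 7.11 after siYT and at 14.20 and 11.07 after siNC. ADAMTS1, a protease that cleaves versican, was at 7.94 and 9.26 after siYT and at 13.43 and 10.03 after siNC, so its difference was 1.32 in one pair and -3.40 in the other. Of 25 prostaglandin genes, 1 was higher and 2 lower, the latter PTGIS, the prostacyclin synthase, and PTGFR, the receptor for prostaglandin F2 alpha.

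Genes of the TGF-beta family were mostly higher where called, while the list medians after siYT were small. Of 31 activin, inhibin, follistatin and TGF-beta genes, 6 were higher and 1 lower. The median was -0.01 after siYT, where 17 of the 31 differences were negative, and 0.43 after siNC. Besides TGFB3 and INHBA, the receptor TGFBR1 was at 9.40 and 11.10, and the transducer SMAD2 at 13.03 and 15.24. SMAD3, the related transducer, was the gene called lower, at 11.15 and 9.14, while its siNC values were 11.18 and 10.77. Of 33 BMP, ID and SMAD genes, 5 were higher and 2 lower after siYT, and 10 and 1 after siNC, with medians of 0.004 and 0.07. BMP6, a ligand, was at 7.19 and 10.36 after siYT and at 4.71 and 6.41 after siNC, and GDF15, a distant stress-related member of the family, at 13.17 and 15.97. ID2, an inhibitor of basic helix-loop-helix factors, was at 13.46 and 14.25 after siYT and at 8.84 and 13.54 after siNC, differences of 0.79 and 4.70.

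Genes of the respiratory chain were higher as a group. Of 54 measured subunits of oxidative phosphorylation with cytochrome c, 22 were called higher after siYT and none lower, and all 54 differences were above 0, with a median of 0.84. After siNC 5 were called higher and none lower, with a median of 0.34. The differences of single subunits were small. COX7B, a subunit of cytochrome oxidase, was at 11.25 and 12.94 after siYT and at 11.21 and 11.81 after siNC. NDUFA2 and NDUFB5, subunits of complex I, were at 9.54 and 11.16 and at 12.07 and 13.65. CYCS, cytochrome c itself, was at 13.36 and 14.91 after siYT and at 14.20 and 14.36 after siNC. Split by complex, which was done after the values were seen, 8 of 24 genes of complex I were higher, 1 of 3 of complex II, 4 of 8 of complex III, 5 of 10 of complex IV and 3 of 8 of the ATP synthase. The median lay between 0.73 and 1.00 in each of the 5 complexes. The list's median stayed between 0.78 and 0.90 under every scaling tried, and its count of higher genes between 17 and 24.

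**Figure D3:**
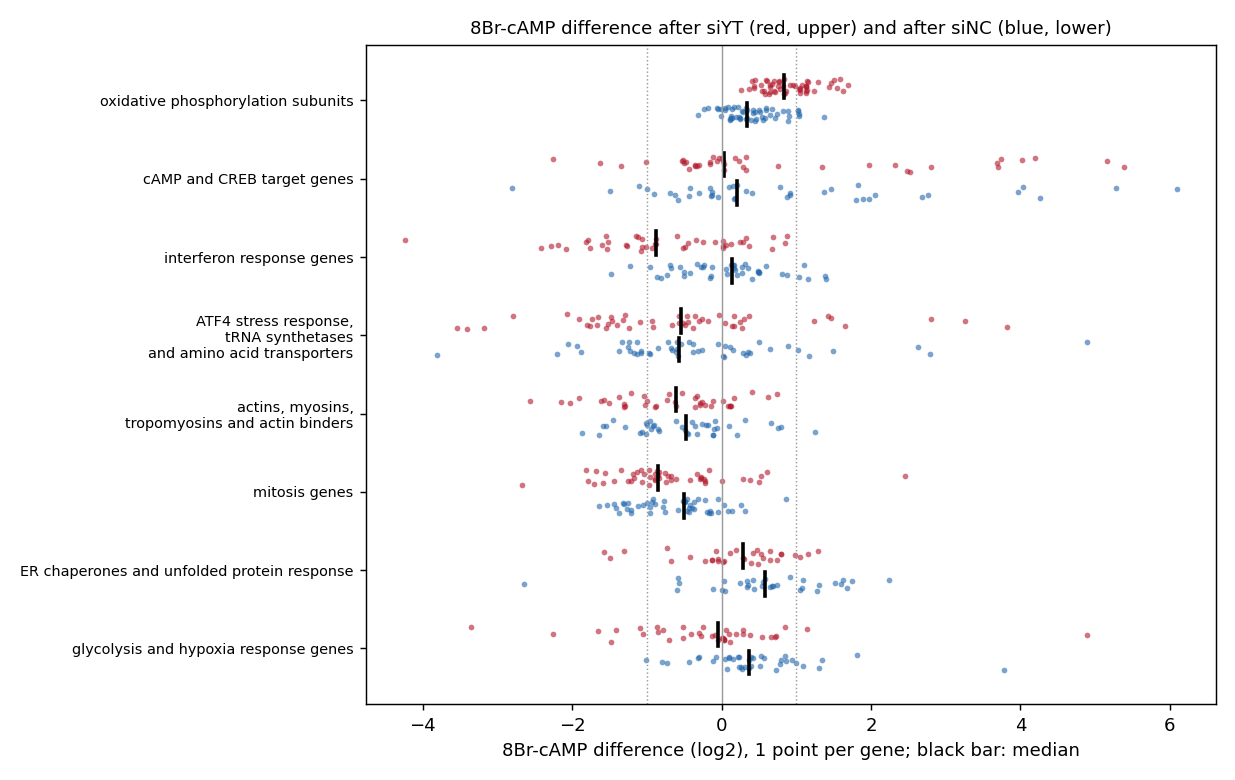
8Br-cAMP difference on the log2 scale (horizontal axis) of every measured gene of 8 lists, after siYT in red and after siNC in blue, with the median as a black bar; dotted lines mark 2-fold. All 54 oxidative phosphorylation genes lie right of 0 after siYT, and the median of the interferon list is -0.88 after siYT and 0.14 after siNC.

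Other mitochondrial groups, chosen after their values were seen, are given as values. Of 74 mitochondrial ribosomal proteins, 8 were higher (10.8%) and 1 lower (1.35%), with a median of 0.38. Of the 74, 69 passed the filter, where the shares of all genes were 7.75% and 7.92%. Of 15 genes of the citric acid cycle and pyruvate dehydrogenase, 5 were higher and none lower, with a median of 0.74, and the largest difference was that of OGDH, the oxoglutarate dehydrogenase, from 11.07 to 13.02. Of 26 cytosolic ribosomal proteins none was called either way, with a median of -0.33 after siYT and 0.11 after siNC. Of 14 housekeeping genes, ACTB was lower, at 12.36 and 10.85, and none was higher.

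Glycolysis and hypoxia genes were lower more often than higher. Of 39 measured, 2 were higher and 7 lower after siYT, and 5 and 0 after siNC. The glucose transporter SLC2A1 was at 10.47 and 8.21 after siYT and at 11.22 and 11.29 after siNC. ADM, the vasodilator adrenomedullin, was at 7.99 and 4.63 against 9.44 and 9.49, and VEGFA, the vascular growth factor, at 14.34 and 12.68 against 13.08 and 13.18. PFKFB3, a regulator of glycolysis, was at 7.95 and 6.47. PDK4 was a gene called higher. In this list the difference of differences, which takes the value after siNC from that after siYT, was at least 1 higher for 2 genes and at least 1 lower for 12.

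Lipid genes split evenly. Of 42 genes of fatty acid metabolism, 5 were higher and 5 lower. FABP3, a fatty acid binding protein, was at 9.70 and 6.29, and FADS3, a desaturase-like protein, at 12.31 and 10.12. CPT2, which releases fatty acids for oxidation inside mitochondria, was higher, at 8.14 and 9.61. Of 49 lysosomal genes, 5 were higher (10.2%) and 1 lower (2.04%). Because 45 of the 49 passed the filter, the shares to set beside these are the 7.75% and 7.92% of all genes past it. CTSL, a cysteine protease, was at 13.44 and 15.02 and ATP6V0B, a proton pump subunit, at 11.53 and 13.29.

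Genes of the amino acid stress response were more often called lower than higher. In the list of 50 ATF4 targets, tRNA synthetases and amino acid transporters, 7 were called higher and 20 lower after siYT, and 6 and 15 after siNC, with medians of -0.54 and -0.56. ASNS, the asparagine synthetase, was at 12.16 and 8.63 after siYT and at 14.002 and 12.67 after siNC. DDIT3, the stress factor CHOP, was at 9.21 and 5.80 against 8.81 and 6.93, and PSAT1, of serine synthesis, at 14.38 and 11.21 against 16.43 and 14.50. In these 3 the difference was larger after siYT by more than 1. MTHFD2, a mitochondrial folate enzyme, was at 12.98 and 10.18, and CBS, which condenses serine with homocysteine, at 8.74 and 5.72.

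The list's parts were separated after the values were seen. Among 12 genes of tRNA charging and export, 7 were lower and none higher, with a median of -1.19. Among 18 amino acid transporters, 6 were higher and 1 lower. SLC7A8, an exchanger of neutral amino acids, was at 4.36 and 8.19 after siYT and at 5.41 and 10.31 after siNC, and SLC1A3, a glutamate transporter, at 9.29 and 12.55 against 6.72 and 9.51. Among the remaining 20 genes, 12 were lower and GDF15 was higher.

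The unfolded protein response list differed from it. Of 33 chaperones and sensors of the endoplasmic reticulum, 3 were higher and 3 lower after siYT, with a median of 0.28, while 11 were higher and 1 lower after siNC, with a median of 0.59. The shares after siYT were 9.09% each way, near the 7.75% and 7.92% of genes past the filter, which 30 of the 33 passed. ERN1, the sensor IRE1, was at 9.47 and 7.98 after siYT and at 7.80 and 8.39 after siNC. SYVN1, a ubiquitin ligase of that organelle, was at 12.90 and 13.95 against 11.14 and 13.38. Among 9 Tribbles and alpha-arrestin genes, 5 were lower and none higher, with a median of -1.11. TRIB3, an ATF4 target, was at 8.84 and 7.29, and TRIB2, a related pseudokinase, at 9.86 and 8.03 after siYT and at 6.21 and 9.21 after siNC.

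Interferon response genes that were called after siYT were all lower. Of 44 measured, 19 were called lower and none higher, with a median of -0.88, whereas after siNC 5 were higher and 2 lower, with a median of 0.14. The difference of differences was lower by at least 1 in 15 of the 44 and higher in none. IFIT2 and IFIT3, which bind foreign RNA, were at 8.60 and 6.19 and at 10.56 and 8.28 after siYT. Their differences after siNC were -1.23 and -0.68. OAS2, a sensor of double-stranded RNA, was at 9.02 and 6.93 after siYT and at 8.18 and 8.98 after siNC, and XAF1, a pro-apoptotic factor, at 10.66 and 8.48 against 9.49 and 9.57. IFIT1 was at 11.55 and 9.74 against 11.84 and 11.90. The list's median lay between -0.92 and -0.83 under every scaling tried.

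Cytokines and chemokines included very large differences both ways. Of 42 measured, 4 were higher and 12 lower after siYT, against 6 and 3 after siNC. IL6 was at 12.18 in siYT and 9.75 in siYT+8Br-cAMP, and at 14.67 and 17.45 after siNC, so the difference was -2.44 in one pair and 2.78 in the other. CXCL8 and CXCL1, which attract neutrophils, were at 13.04 and 9.72 and at 10.87 and 7.68 after siYT, and their differences after siNC were -0.86 and -0.75. CCL20, another chemokine, was at 6.22 and 3.49 and thus reached the filter on 1 array by a small margin. VCAM1, an adhesion molecule for leukocytes, was at 11.29 and 8.08 against 11.39 and 8.89. Among the higher members besides IL11, ACKR3, a scavenger receptor for CXCL12, was at 11.15 and 14.62. NFKBIA, the inhibitor of NF-kappa-B that is itself an NF-kappa-B target, was at 12.21 and 9.79.

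The genes of MHC class II were chosen after their values were seen. Of 12 measured, 6 were called higher (50.0%, against 4.06% of all genes) and none lower, with a median of 1.13, and 4 were higher after siNC. Past the level filter were 2 of the 12 in siYT and 6 in siYT+8Br-cAMP. Every gene of the list that could be called was thus called, and most passed the filter only with 8Br-cAMP. The count is therefore given as a description of a list chosen on its values. CIITA, the coactivator that switches this family on, was at 6.20 and 8.66, and CD74, the invariant chain, at 10.85 and 12.99. HLA-DRA was at 4.70 and 9.62, and HLA-DMA, a peptide exchange factor, at 9.75 and 13.49. HLA-DRA is also in the list of 12 immune cell markers, where it was the gene called. PTPRC, the pan-leukocyte marker CD45, was at 3.90 and 4.02, CD3E of T cells at 4.72 and 5.30, and MS4A1 of B cells at 3.51 and 3.71, all under the filter. CD68, a lysosomal protein of macrophages, was at 12.69 and 13.15, and TYROBP, a signalling adaptor of myeloid cells, at 7.25 and 6.66. The sum of the log2 levels of the 12 markers was 63.8 in siYT and 67.5 in siYT+8Br-cAMP, and 59.7 and 60.8 in the siNC pair. HLA-DRA alone differed by 4.92 after siYT and 3.40 after siNC, more than the whole sum in each pair. The median difference of the 12 was 0.12 after siYT and -0.11 after siNC.

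Cell cycle genes that were called were mostly lower with 8Br-cAMP. Of 49 mitosis genes, 1 was higher and 12 lower, with a median of -0.85 after siYT and -0.51 after siNC. The median level of these genes in siYT was 6.96, not far over the filter, and with an offset of 32 added to the linear values 5 were lower. ANLN, an actin binder of the cleavage furrow, was at 11.95 and 9.28 after siYT and at 15.53 and 14.62 after siNC, and MKI67, the proliferation marker Ki-67, at 8.81 and 7.02 against 12.07 and 11.07. KIF18A, a mitotic kinesin, was higher, at 7.90 and 10.36. Of 43 replication genes, 6 were lower and none higher, with medians of -0.45 after siYT and -0.80 after siNC. Their median level was 6.23 in siYT and 5.62 in siYT+8Br-cAMP, with 22 and 14 genes past the filter. In siNC it was 8.53, with 36 past it, so the 2 medians of differences are not on an equal footing. RRM2 and TYMS, which supply DNA precursors, were at 8.21 and 5.56 and at 9.02 and 6.38, so RRM2 ended under the filter and TYMS just over it. Of 26 cyclin, CDK and E2F genes, 4 were lower, among them CDK4, at 12.92 and 11.09, and cyclin D1 (CCND1), at 12.68 and 11.12. Of 35 histone genes 8 were lower, or 5 with that offset, and 1 higher, and their near-identical copies may not be told apart by probes. Among 35 p53, BCL2 and death receptor genes, 3 were higher and 7 lower, with BID, a death agonist, at 10.53 and 8.63.

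The YAP/TAZ targets that were called were lower with 8Br-cAMP, with YAP1 and WWTR1 low on both arrays. Of 20 measured targets, 7 were lower and none higher after siYT, and 6 and none after siNC, with medians of -0.38 and -0.33. CCN1 and CCN2, matricellular proteins, were at 9.53 and 7.49 and at 10.42 and 8.88 after siYT, with differences of -2.04 and -1.54 against -1.19 and -1.21 after siNC. THBS1, a thrombospondin, was at 12.47 and 11.04. ANKRD1 was the largest of the 7, with -4.46 against -1.34. With each array centred on its median, 1 target was called higher. Of 30 genes of the Hippo pathway itself, 3 were lower, among them FRMD6, an upstream scaffold, at 10.16 and 8.31.

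The listed actin genes that were called were lower as well. Of 40 actins, myosins, tropomyosins and actin binders, 14 were lower and none higher, with medians of -0.61 after siYT and -0.47 after siNC. ACTG1, cytoplasmic gamma actin, was at 16.51 and 14.49 after siYT and at 17.01 and 16.0001 after siNC. TAGLN, the smooth-muscle protein transgelin, was at 7.77 and 5.62, CNN1, a calponin, at 7.08 and 5.48, and MYLK, the myosin light chain kinase, at 12.27 and 9.71. Apart from that list, ACTBL2, an actin-like gene among the 25 highest, was at 4.49 and 10.90, and MYO10, a myosin of filopodia, at 7.65 and 13.05 after siYT against 9.44 and 10.67 after siNC. CAV1, the main caveolin, was at 13.83 and 11.31.

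Matrix and adhesion genes showed mixed directions. Of 38 collagen genes, 4 were higher and 5 lower, with LOXL1, a lysyl oxidase, at 15.84 and 13.71 and P4HA3, a prolyl hydroxylase, at 5.57 and 8.35. Of 54 matrix glycoproteins, 5 were higher and 7 lower. TNC, the matrix protein tenascin C, was at 13.55 and 10.50 after siYT and at 10.27 and 8.69 after siNC, and MGP, an inhibitor of calcification, at 16.12 and 14.11 against 9.83 and 9.67. VTN, vitronectin, was higher, at 8.48 and 11.24. Of 28 integrins and laminins, 1 was higher and 4 lower, with ITGA2 and ITGA11, collagen receptor chains, at 11.57 and 9.59 and at 10.35 and 8.46. Of 41 matrix proteases and inhibitors, 4 were higher and 4 lower. PLAT, tissue plasminogen activator, was at 8.45 and 6.997 after siYT and at 10.74 and 7.86 after siNC. Of 40 intermediate filament, claudin, cadherin and connexin genes, 7 were higher and 4 lower, with PKP2, a desmosomal protein, at 12.49 and 14.52.

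Lists of transcription factors held few calls, with more genes lower than higher in each of 4. Of 16 AP-1 subunits, 3 were lower and none higher. JUN was at 8.69 and 5.85 after siYT and at 9.94 and 7.36 after siNC, and FOSL1 at 10.95 and 8.98 against 14.09 and 11.05. Of 16 KLF genes, 1 was higher and 2 lower: KLF9 was at 7.38 and 9.23, KLF6 at 10.92 and 8.38 and KLF2 at 7.32 and 5.20. Of 35 forkhead and SOX genes, 1 was higher and 3 lower, and of 30 other nuclear receptors, 1 and 3. The shares lower, 8.57% and 10.0%, were near the 7.92% of genes past the filter. With the offset of 32 no forkhead or SOX gene was called. With the filter at the 95th percentile of the negative controls, 1 nuclear receptor was higher and 1 lower. NR3C2, the mineralocorticoid receptor, was at 9.82 and 8.06, and PPARD, a fatty acid sensor, at 10.04 and 11.64. Of 18 glucocorticoid response genes, 5 were higher and 5 lower. SGK1, a kinase that controls sodium transport, was at 11.19 and 15.38 after siYT and at 13.51 and 15.23 after siNC.

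Growth factor and guidance genes differed gene by gene. Of 20 IGF binding protein, PAPPA and stanniocalcin genes, 5 were higher and 2 lower. IGFBP4, which withholds IGFs, was at 8.69 and 12.94, and PAPPA, the protease that cleaves it, at 10.87 and 12.53. STC1, a secreted glycoprotein, was at 14.38 and 15.71 after siYT, and its difference of 1.34 stood against 2.68 after siNC. Of 15 EGF family genes, 1 was higher and 2 lower. NRG1, an ERBB ligand, was at 9.89 and 12.07 after siYT and at 13.11 and 12.66 after siNC, and BTC, betacellulin, was lower, at 7.64 and 6.02.

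Among 59 Wnt genes, 5 were higher and 6 lower. SFRP1, a secreted Wnt antagonist, was at 5.47 and 9.61, and CTNNB1, which encodes beta-catenin, at 13.87 and 15.98. Of 58 semaphorin, plexin and ephrin genes, 7 were higher and 6 lower, with SEMA3A at 10.56 and 14.33 and the receptor ROBO1 at 11.88 and 14.59. Of 24 endothelin and VEGF genes, 4 were lower and none higher. EDN2, an endothelin chosen for its difference between the siRNAs, stayed under the filter after siYT at 3.16 and 3.28, but was at 3.84 and 8.15 after siNC. Of 43 FGF, PDGF and receptor kinase genes, 2 were higher and 4 lower, with the receptor PDGFRA at 9.81 and 7.22. Of 25 Notch genes, HEY1 was higher (4.0%, near the share of all genes) and none lower. Of 52 ion channels, 2 were higher and 5 lower, and KCNJ8, a potassium channel subunit, was at 5.43 and 9.76 after siYT and at 6.03 and 6.62 after siNC.

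The remaining lists showed both directions. Of 42 NRF2 and glutathione genes, 2 were higher (4.76%) and 1 lower (2.38%), near or under the shares of all genes. The gene called lower was HMOX1, the heme oxygenase, at 6.37 and 4.86 after siYT and 12.13 and 10.95 after siNC. Of 22 complement genes, 4 were higher and 1 lower. CD55, which protects cells from complement, was at 14.45 and 17.004, and C3 was lower, at 16.56 and 15.40. Of 19 mineralization and thyroid hormone genes, 2 were higher, DIO2 and ALPL, and 3 lower. Of 12 caveolin and flotillin genes, 1 was higher and 1 lower.

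Most markers of other cell types were not called, and their part in the results was not tested. None of 12 oocyte and none of 10 endothelial markers was called, and none of these reached the filter on the siYT arrays. Of 8 theca markers ACTA2 was lower, at 11.04 and 9.14, while CYP17A1, the defining enzyme of that layer, was under the filter at 4.71 and 4.91. Among 10 stromal markers, PDGFRA and COL1A1 were lower. The sum of the log2 levels of the list was 93.2 in siYT, 88.0 in siYT+8Br-cAMP, 78.2 in siNC and 79.2 in siNC+8Br-cAMP. Of 7 Sertoli markers CLDN11 was lower, at 12.65 and 11.49, and of 11 surface epithelium markers KRT7 was higher and KRT18 lower. In a bulk sample fewer cells of a type and less RNA per cell cannot be told apart.

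**Figure D4:**
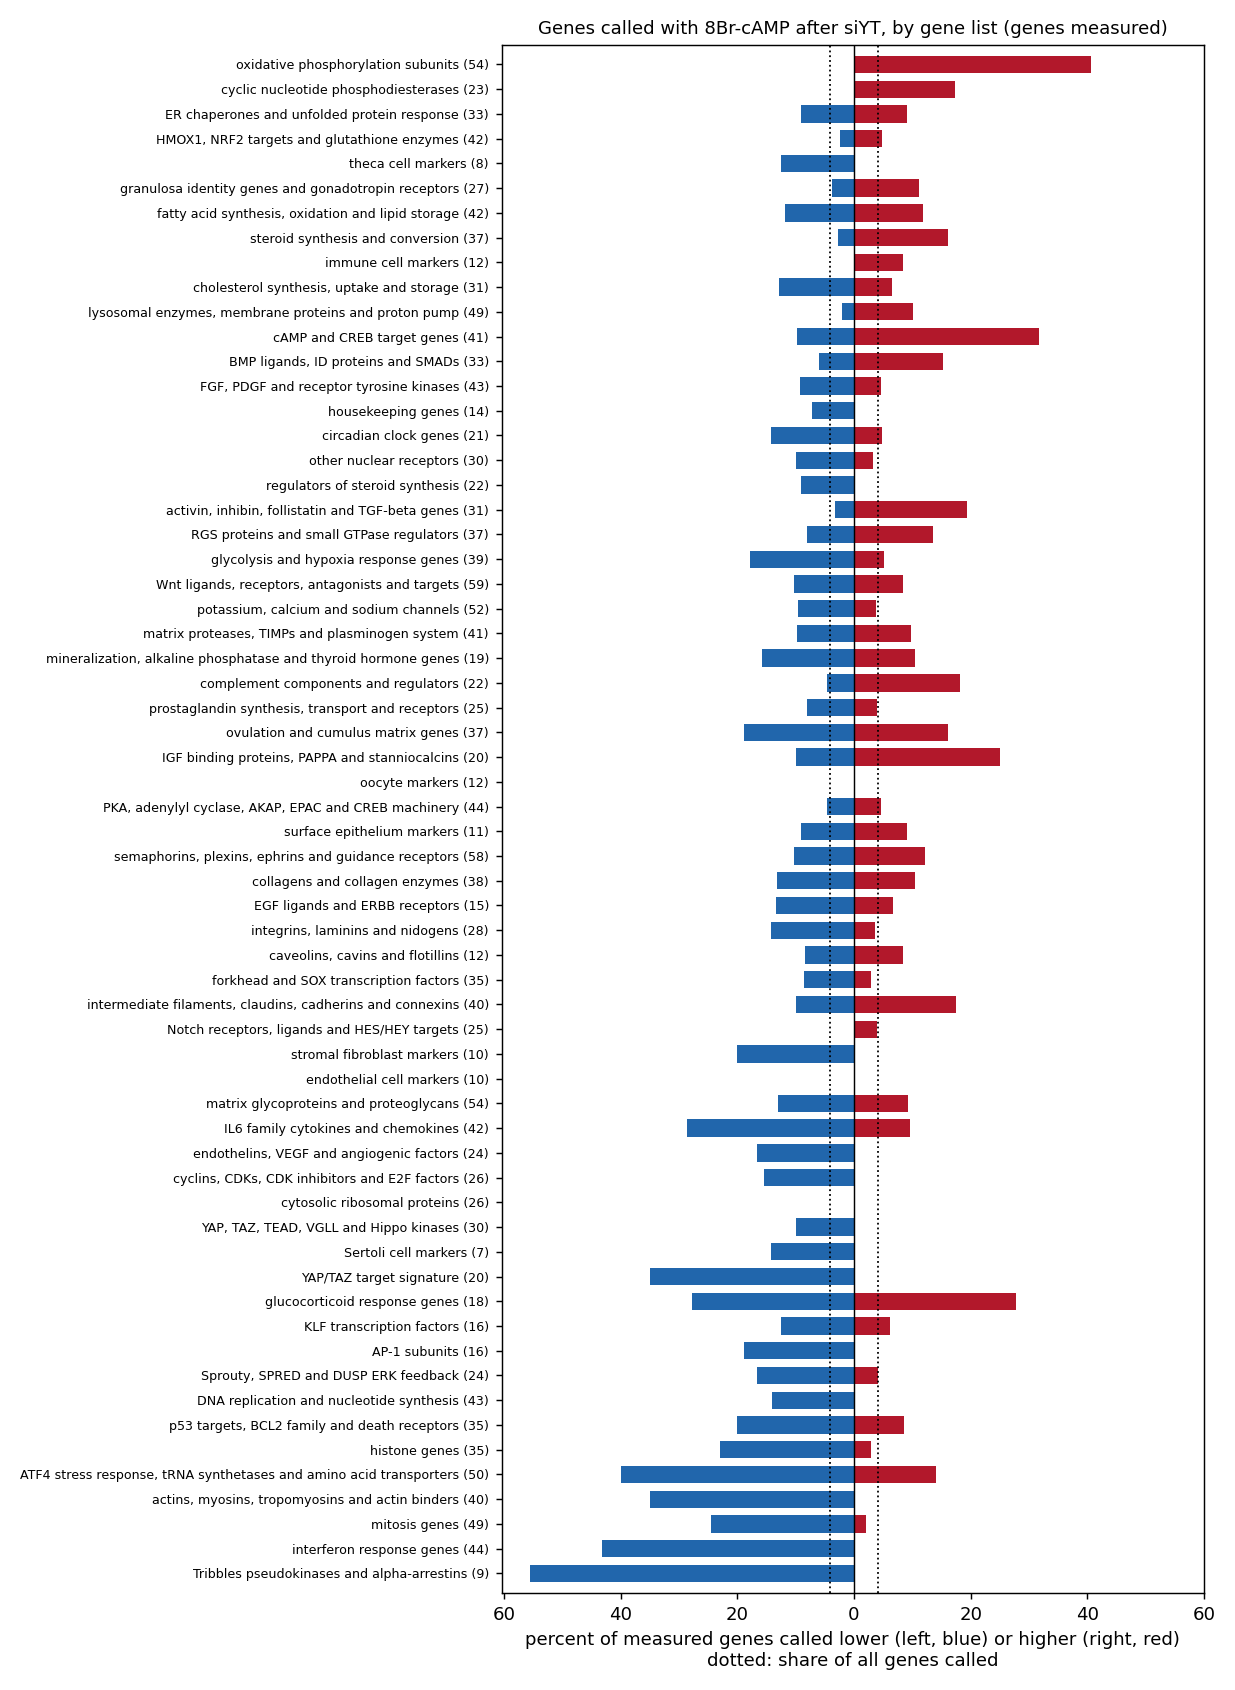
Percent of the measured genes of each of 62 lists that were called lower (blue, left) or higher (red, right) with 8Br-cAMP after siYT, ordered by the list's median difference; the number measured is in brackets and dotted lines are the shares of all genes, 4.15% lower and 4.06% higher. Oxidative phosphorylation is at the top, with 22 of 54 genes higher, and the Tribbles and interferon lists are at the bottom, with 5 of 9 and 19 of 44 lower. Among genes past the level filter the shares were 7.92% lower and 7.75% higher, and lists differ in how many genes passed it.

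The response after siYT overlapped with that after siNC, which was measured on other arrays. Of the 718 genes higher after siYT, 279 were also called higher after siNC, which is 38.9% of the first list and 36.5% of the second. For the lower genes the overlap was 215, which is 29.3% and 32.5%. Of the genes called higher after siYT, 88.3% had a positive difference after siNC, and 81.1% of the lower genes a negative one. Their median differences were 1.36 after siYT and 0.86 after siNC for the higher genes, and -1.31 and -0.63 for the lower. Genes called higher after siNC had medians of 1.33 after siNC and 0.74 after siYT, so in each pair the genes chosen on it differed less on the other. Across 8799 genes past the filter in both pairs, Pearson's r was 0.58 and Spearman's coefficient 0.49. This is a description across genes, which are not independent.

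The difference of differences was at least 1 higher after siYT for 631 genes (3.57%) and at least 1 lower for 853 (4.82%), each with the highest of 4 arrays past the filter. With each array centred on its median the order turned, with 797 higher and 690 lower. It carries the error of 4 arrays, so these shares are a description without a test. CYP19A1 (-5.93), IL6 (-5.21) and TRIB2 (-4.84) had the lowest values. ADAMTS1 (4.72), MYO10 (4.18), RAP1GAP (3.91) and GREB1 (3.86) had the highest. GREB1, a regulator of estrogen-responsive growth, was at 3.52 and 7.497 after siYT and at 3.09 and 3.21 after siNC. TNFSF10, the death ligand TRAIL, was at 12.51 and 12.95 after siYT and at 7.62 and 11.96 after siNC. GADD45A, a stress sensor that binds PCNA, was at 8.69 and 9.02 against 11.89 and 9.09. AP1S3, an adaptor subunit of vesicle coats, was at 7.53 and 10.96 against 9.62 and 9.90, and CPM, a membrane carboxypeptidase, at 5.11 and 10.79 against 7.04 and 8.93.

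**Figure D5:**
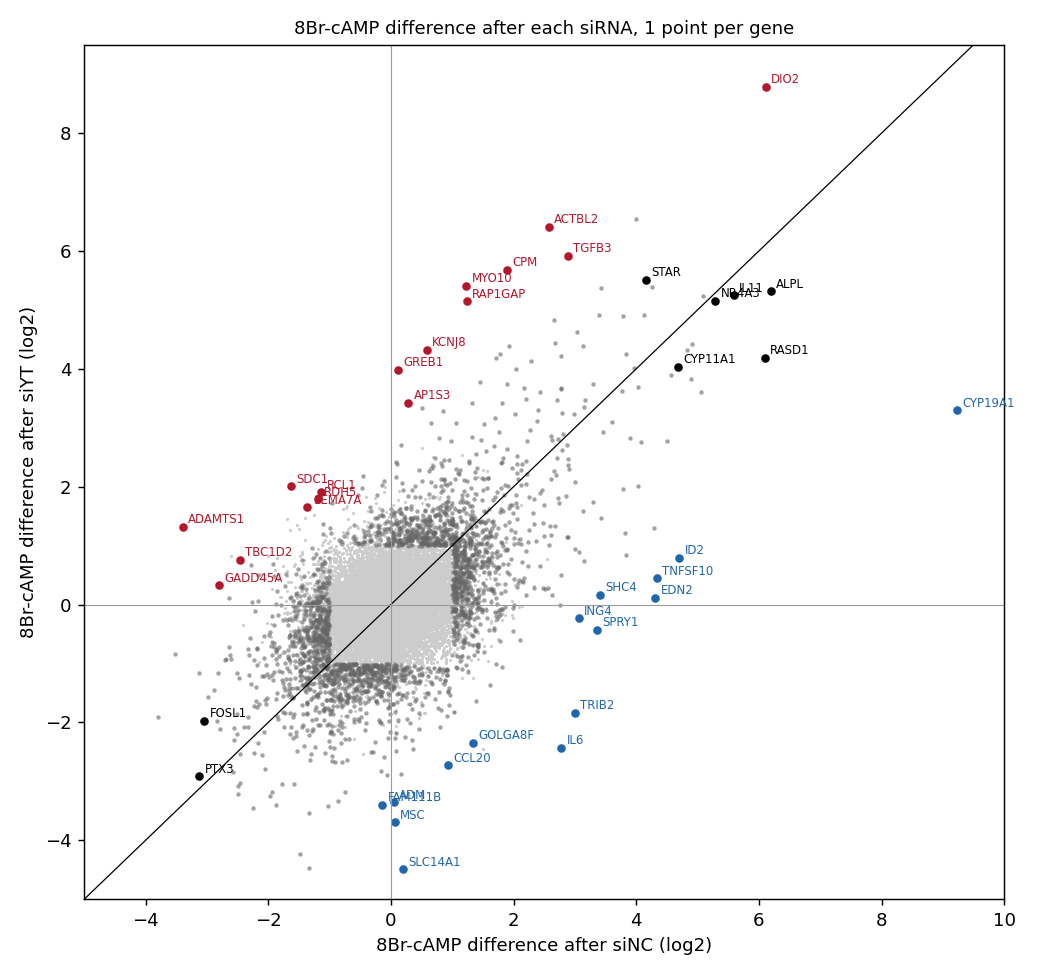
8Br-cAMP difference after siYT (vertical axis) against that after siNC (horizontal axis), both log2, 1 point per gene; dark points were called in at least 1 pair, and the line marks equal differences. DIO2, at 6.11 and 8.78, is the highest on the vertical axis, and CYP19A1, at 9.23 and 3.29, the farthest right.

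A set of 20 genes differed by at least 1 in opposite directions after the siRNAs. In 7 the level was higher with 8Br-cAMP after siYT and lower after siNC, and in 13 it was lower after siYT and higher after siNC. All 7 genes of the first kind were lower in siYT than in siNC without 8Br-cAMP, and 12 of the 13 of the second kind were higher there. In 15 of the 20 the gap between siRNAs was smaller with 8Br-cAMP than without. SDC1, the proteoglycan syndecan 1, was at 5.98 and 7.98 after siYT and at 9.11 and 7.48 after siNC. SEMA7A, a membrane semaphorin, was at 10.62 and 12.27 against 13.79 and 12.43. NDRG1, a hypoxia-responsive gene, was at 10.51 and 9.45 against 8.61 and 10.43, and SLC40A1, the iron exporter ferroportin, at 8.06 and 7.05 against 6.51 and 8.22. The siYT array without 8Br-cAMP enters both the difference after siYT and the siRNA gap, so these counts are not independent of each other.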

How the data were processed

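RNA of 4 groups of KGN cells was profiled on 1 Clariom S array each. The deposited values are log2 levels made by the authors with RMA in Affymetrix Expression Console, per the labels and the submitters' processing notes; versions and genome build are not given in the sources used here. They run from 1.39 to 19.36, and values above 16, the log2 range of a 16-bit scanner, leave a further rescaling possible, so folds are in deposited units. The number of arrays limits the precision.

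Probe sets were named from the platform's annotation with RefSeq symbols, and the probe sets of 20 genes with several were averaged. Of 1916 genes in 62 lists, 1734 were measured; the others, CREM, PER1 and AREG among them, were not analysed here. Differences were computed in Python 3.11.15 with pandas 2.3.3 and called by size and level, without a test. The reliability of the calls was not tested. An additive limma fit was not used, since it averages both siRNAs and takes their disagreement for error. Cyclic loess and quantile scaling used limma 3.58.1 in R 4.3.3. Alternatives were filter, fold, 4 scalings, an offset and the probe-set rule.

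Members, lists and rules were chosen with earlier results of these data known. Named genes are YAP1, WWTR1, the 25 highest and lowest by the difference after siYT, 15 at each end of the difference of differences, genes called in opposite directions, up to 6 members of each list with the largest difference, and all members of the steroid, cAMP target, phosphodiesterase, clock and granulosa lists. OGDH, PTPRC, MS4A1 and the MHC class II genes other than HLA-DRA were chosen after their values were seen. Promoter motifs were searched on both strands.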

Additional observations from a re-analysis of the deposited data

Results flagged for a closer look

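The 20 genes with opposite differences after the siRNAs stand apart because the arrays of one siRNA differ one way and those of the other siRNA the opposite way; with 1 array per group the difference was not tested. The difference after siYT minus that after siNC was 4.72 for ADAMTS1, 3.64 for SDC1, 3.03 for RCL1, 3.01 for SEMA7A, 2.97 for RDH5, 2.47 for ARHGAP29 and 2.31 for IMMP1L. It was -5.21 for IL6, -4.84 for TRIB2, -3.68 for GOLGA8F, -3.02 for PTGIS, -2.99 for ANO2, -2.87 for NDRG1, -2.86 for GXYLT2, -2.72 for SLC40A1, -2.41 for SESN1, -2.25 for PSMB10, -2.24 for PNRC1, -2.17 for APLF and -2.12 for TET2. After siYT, RCL1, IMMP1L, SDC1, ANO2 and GOLGA8F had a value under the level filter, and PSMB10 was under it on both arrays.

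Outside the named genes, 93 transcript clusters without a gene name were called higher and 85 lower with 8Br-cAMP after siYT, with differences from -3.62 to 4.08. Of 3739 such clusters 1300 passed the level filter, and 13.7% of these were called, against 10.1% of the positive control probe sets that passed it.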

How the results depend on the processing

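The 8 counts of called genes stayed within 1.5 times their value under the filter at the negative controls, all 4 scalings, the offset and the probe-set rule. At 1.5-fold in place of 2-fold they were 1706 higher and 1712 lower after siYT, 1888 and 1629 after siNC, 835 and 759 after both (308 and 231 at 2-fold where the filter is on the highest of 4 arrays, as here), and 1676 and 2052 for the difference of differences. At 4-fold they were 158 and 97, 147 and 67, 79 and 18, and 62 and 119. Without the level filter, 1088 were lower after siNC, and the difference of differences was higher for 1409 and lower for 1347. Of 284 named genes called, 255 kept the call under every scaling and the offset, and 29 lost it under at least 1 scaling or the offset, among them CCL20, GATA6, MRAP2, PKIA, HEY1, HMOX1, KRT7, SYVN1, SLC40A1, ANO2, APLF, IMMP1L, PNRC1 and TET2. None changed sign. Of the medians of 62 lists, 27 of 432 values moved by 0.25 or more, and 24 of these came with the higher filter. No paired analysis was possible because each group is 1 array. Leaving out a replicate was not possible for the same reason. Signals near background limit every value under the level filter.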
